A study of Mus musculus and Homo sapiens with 10 samples.

Results

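Lamina-associated domains (LADs) are stretches of chromatin held at the nuclear lamina, the protein mesh under the inner nuclear membrane. The regions described here are the Nanopore LADs of mouse N2A cells that were mostly absent from the Illumina LAD list of the same cell line. A Nanopore LAD on chromosomes 1 to 19 or X was a member when less than 50% of its bases were covered by Illumina LADs, and 250 of 1174 Nanopore LADs (21.3%) met that rule. Members were thus chosen by their Illumina coverage, so coverage by and distance from Illumina LADs are given as descriptions.

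N2A is a mouse neuroblastoma line. Cells carried LaminB1-Dam, a lamina protein fused to the bacterial adenine methyltransferase Dam, or Dam alone; per the labels, expression was induced with 2 µg/mL doxycycline. LaminB1-Dam was represented by 1 sample read on Nanopore instruments and 2 on Illumina instruments, Dam alone by 1 sample of each method, and a further Nanopore sample was labelled 10% LaminB1-Dam. The labels do not say which samples entered each list or how LADs were called. Each method contributed a single consensus list of interval positions, so no value per sample, spread between replicates or depth was at hand and no test was made. The intervals beside shares, medians and densities are exact 95% intervals for counting error, and they treat neighbouring LADs and genes as independent. Cell identity could not be checked against markers, since no expression was measured.

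In DamID the fused Dam protein methylates the adenine of GATC wherever the lamina touches the genome, and the methylated sites are then cut by DpnI and read. Per the labels, 2.5 µg of genomic DNA entered each Nanopore library, which was cut with DpnI and ligated to adapters without the library kit used for Illumina. LADs are known as broad, gene-poor and mostly silent chromatin, often holding large families of tissue-restricted receptor genes. LADs that are found in some cell types and not in others tend to be narrower and richer in genes than the constant ones.

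Promoters of genes in the widest of these LADs are shown because GATC is the sequence the assay reads. They are RefSeq windows of 300 bases (250 before and 50 after a start site, GRCm38.p6), from the longest eligible gene in each of the 4 widest LADs that held one, with GATC in capitals. Epyc encodes the matrix proteoglycan epiphycan (chr10:97643818-97644117, plus strand), Hsf3 a heat shock factor (chrX:96367870-96368169, minus strand), Ins1 insulin (chr19:52264047-52264346, plus strand) and Dpyd a pyrimidine-degrading enzyme (chr3:118561930-118562229, plus strand).
Epyc: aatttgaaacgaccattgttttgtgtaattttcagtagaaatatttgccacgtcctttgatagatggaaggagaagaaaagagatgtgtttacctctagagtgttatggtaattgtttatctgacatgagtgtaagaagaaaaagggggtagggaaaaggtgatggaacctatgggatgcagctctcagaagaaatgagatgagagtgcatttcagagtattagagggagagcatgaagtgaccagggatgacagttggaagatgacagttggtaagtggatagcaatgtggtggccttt
Hsf3: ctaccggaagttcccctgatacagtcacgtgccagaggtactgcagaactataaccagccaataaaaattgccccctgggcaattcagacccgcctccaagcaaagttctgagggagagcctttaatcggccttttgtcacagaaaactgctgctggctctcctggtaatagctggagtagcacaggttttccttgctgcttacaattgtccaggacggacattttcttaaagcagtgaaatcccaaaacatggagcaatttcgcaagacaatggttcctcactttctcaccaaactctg
Ins1: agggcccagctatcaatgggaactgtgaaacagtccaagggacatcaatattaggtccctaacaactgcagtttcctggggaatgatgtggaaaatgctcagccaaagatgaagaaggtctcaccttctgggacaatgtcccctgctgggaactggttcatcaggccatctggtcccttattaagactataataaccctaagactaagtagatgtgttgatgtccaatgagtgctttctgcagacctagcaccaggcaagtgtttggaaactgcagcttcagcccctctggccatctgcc
Dpyd: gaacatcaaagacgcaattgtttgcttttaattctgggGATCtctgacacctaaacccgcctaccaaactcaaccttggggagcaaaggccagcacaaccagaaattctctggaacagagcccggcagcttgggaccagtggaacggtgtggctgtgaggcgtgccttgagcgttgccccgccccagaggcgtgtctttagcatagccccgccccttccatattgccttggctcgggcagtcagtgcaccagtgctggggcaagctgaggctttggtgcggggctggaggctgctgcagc
GATC reads the same on both strands. It occurred 1 time in the Dpyd window and 0 times in the windows of Epyc, Hsf3 and Ins1. Of 17274 protein-coding genes with a window in the table, 46.3% had at least 1 GATC. Windows were at hand for 340 of the 446 protein-coding genes in these LADs (76.2%), under the 80% set for a check of base composition, so a comparison of promoter composition is void and none is given.

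Short regulatory RNAs also lay in these LADs. Of 17 microRNA genes, 13 had a mature sequence in the RefSeq table. The following are shown with the seed, bases 2 to 8, in capitals, because they include the members of a shared seed and microRNAs with known tissue roles.
mmu-miR-449a-5p: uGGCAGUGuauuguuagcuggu
mmu-miR-449c-5p: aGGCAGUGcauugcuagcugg
mmu-miR-137-3p: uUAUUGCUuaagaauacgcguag
mmu-miR-223-3p: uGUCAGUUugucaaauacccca
mmu-miR-483-3p: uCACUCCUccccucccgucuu
mmu-miR-504-5p: aGACCCUGgucugcacucuauc
miR-449a and miR-449c share the seed GGCAGUG and are known from ciliated epithelia. Mir449c (113035983 to 113036091), Mir449b (113037419 to 113037498) and Mir449a (113037534 to 113037624) lay in a row within Cdc20b on chromosome 13. Mir137, a brain microRNA gene, lay before Dpyd on chromosome 3 (118433857 to 118433929), outside the Illumina LAD of that region. Mir223, a myeloid microRNA gene, lay close to the border of its LAD on chromosome X (96242817 to 96242926, with the border at 96240001). Mir483 lay within Igf2 on chromosome 7 (142654924 to 142654996).

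The 250 LADs were narrow. They covered 78.02 Mb, 5.27% of all Nanopore LAD bases, and 3.03% of the 2571 Mb spanned by genes and LADs. Their median width was 200 kb (95% interval 160 to 240 kb), against 950 kb (880 to 1040 kb) for the 924 other Nanopore LADs. Quartiles were 120 and 360 kb for the members and 440 and 1785 kb for the others, and the widest were 2.46 Mb and 19.9 Mb. Members made up 60.8% of the 194 Nanopore LADs under 200 kb, 36.2% of the 268 LADs from 200 to under 500 kb, 9.41% of the 255 LADs from 500 kb to under 1 Mb and 2.41% of the 457 LADs of 1 Mb or more. A narrow LAD was thus more often a member than a wide one, and 11 members were still 1 Mb or wider.

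**Figure D1:**
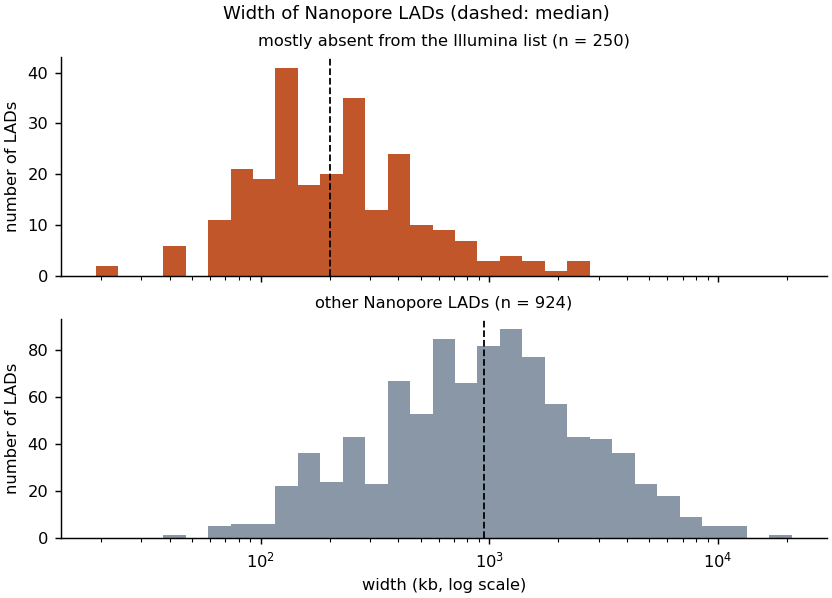
Number of Nanopore LADs by width in kb on a log axis, for the 250 LADs mostly absent from the Illumina list (top) and the 924 other Nanopore LADs (bottom), with the median dashed. The median of the 250 is 200 kb and that of the others 950 kb, and both distributions overlap.

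Most members had no Illumina base at all. This held for 195 of 250 (78%, 72.3 to 83%), with 42.44 Mb and a median width of 160 kb. The other 55 LADs were partly covered, by 1.25% to 47.8% of their bases, and had a median width of 420 kb. In 53 of these 55 an Illumina LAD lay wholly inside the Nanopore LAD: 44 held 1, 7 held 2, 1 held 3 and 1 held 4. In 15 of the 53 an Illumina LAD inside shared a border with the Nanopore LAD. The 65 Illumina LADs inside had a median width of 120 kb (100 to 160 kb) and ranged over 20 to 780 kb. Only the remaining 2, on chromosomes 2 and X, met an Illumina LAD at an edge. The LADs just under the threshold were one on chromosome 2 (153840001 to 154300000) at 47.8%, one on chromosome 9 (71200001 to 71460000) at 46.2% and 4 at 44.4%, among them one on chromosome 2 (3840001 to 4020000). LADs covered by exactly 50%, such as those of 360 kb on chromosome 2 (76000001 to 76360000) and 280 kb on chromosomes 15 and 11, were outside the rule.

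Few of the 195 LADs without an Illumina base lay within 100 kb of an Illumina LAD. Short distances were limited in advance. No gap between Nanopore LADs was under 60 kb, and Nanopore LADs covered most Illumina LADs. The median distance was 420 kb (340 to 540 kb), with quartiles of 190 and 950 kb. In 19 of them an Illumina LAD lay within 100 kb, 1 of these abutting it. In 151 the nearest lay within 1 Mb, and in 44 it was more than 1 Mb away. The farthest, 4.56 Mb from any Illumina LAD, was a stretch of 1.28 Mb on chromosome 2 (122800001 to 124080000) with no protein-coding gene. Next to it, 180 kb away, lay a member of 220 kb with the nucleoside transporter genes Slc28a2 and Slc28a2b and the creatine synthesis gene Gatm, 4.16 Mb from an Illumina LAD. Other remote members were a LAD of 400 kb on chromosome 9 (46680001 to 47080000), 4.1 Mb away, and one of 360 kb on chromosome 6 (35580001 to 35940000), 3.92 Mb away, which held no annotated gene.

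**Figure D2:**
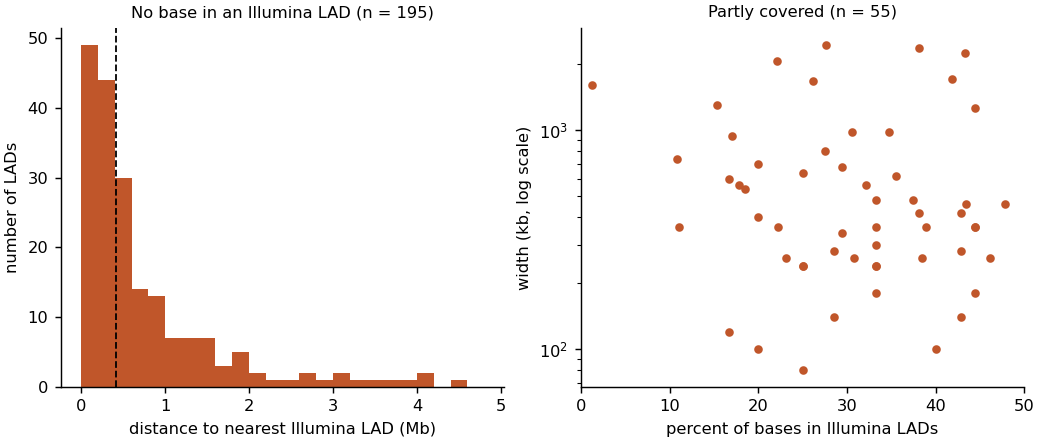
Left, number of the 195 LADs without an Illumina base by distance to the nearest Illumina LAD in Mb, with the median of 420 kb dashed. Right, width in kb on a log axis against the percent of bases in Illumina LADs for the 55 partly covered LADs, which lie between 1.25% and 47.8%.

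Seen from the Illumina list, these LADs lay in wide gaps. Of the 195, 184 had an Illumina LAD on both sides, and they fell in 136 of 1129 Illumina gaps (12.05%). Those gaps had a median width of 1920 kb, against 420 kb for all Illumina gaps, and the widest spanned 11.48 Mb. A gap had to be wider than a LAD to hold it, and the narrowest that did spanned 300 kb. Wide gaps also have more room for a LAD, so the contrast in gap width is a description and was not tested. Taken singly, each of these LADs filled a median of 7.71% of its gap and at most 43.6%. In gaps with 2 or more such LADs, the LADs together filled more than any of them singly. In 103 gaps there was 1 such LAD and in 33 there were 2 or more. The largest number was 5, in a gap of 3.14 Mb on chromosome 2 (173540001 to 176680000), where the 5 LADs covered 0.72 Mb and 1 of them held the zinc finger gene Zfp831.

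Within the Nanopore list, members often followed each other. The nearest Nanopore LAD was itself a member for 89 of 250 (35.6%, 29.7 to 41.9%), against 160 of the 924 other Nanopore LADs (17.3%, 14.9 to 19.9%). In chromosome order 136 members stood in 46 runs of 2 or more, and 114 stood alone. The longest run, 8 in a row, covered the start of chromosome 14 from 3020001 to 7740000, with 2.58 Mb of LADs from 60 to 1260 kb wide. The distance to the nearest Nanopore LAD had a median of 230 kb (180 to 280 kb) for members and 200 kb (200 to 220 kb) for the others, so the intervals overlapped.

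Chromosome X had the highest share of such LADs, with 31 of 78 (39.7%, 28.8 to 51.5%). Chromosome 14 followed with 21 of 60 (35%, 23.1 to 48.4%) and chromosome 2 with 27 of 83 (32.5%, 22.7 to 43.7%). The lowest share was on chromosome 4, with 5 of 62 (8.06%, 2.67 to 17.8%). On chromosomes 2, 14 and X the interval lay above the share over all chromosomes, 21.3%, and on chromosomes 4 and 7 (10 of 85, 11.8%, 5.79 to 20.6%) below it. On chromosome 14, 8 of the 21 members formed the run at its start, and neighbouring LADs are not independent. All chromosomes were compared without correction for their number or for differences in LAD width. In bases, members made up 11.7% of Nanopore LADs on chromosome 19, where a single LAD of 2.26 Mb weighed most, 10.5% on chromosome 2 and 0.82% on chromosome 4.

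**Figure D3:**
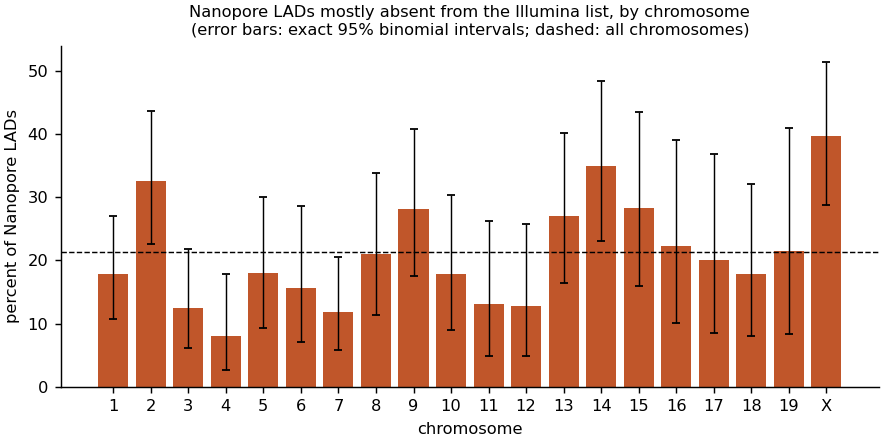
Percent of the Nanopore LADs of each chromosome that were mostly absent from the Illumina list, with exact 95% binomial intervals and the share over all chromosomes, 21.3%, dashed. The bar of chromosome X is the highest at 39.7% and that of chromosome 4 the lowest at 8.06%.

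Protein-coding genes were fewer in these LADs than outside LADs. Of 21523 genes, 446 (2.07%) had their midpoint in one of them and 5777 (26.8%) in another Nanopore LAD. The midpoints of 52 of the 446 were also in an Illumina LAD. Gene density was 5.72 per Mb (5.2 to 6.27), against 4.12 per Mb (4.01 to 4.23) in other Nanopore LADs and 14.03 per Mb (13.8 to 14.3) outside Nanopore LADs. Within width classes members had the lower density in 3 of 4 and the higher one from 500 kb to under 1 Mb. Under 200 kb members had 6.79 genes per Mb (5.44 to 8.37) and other Nanopore LADs 9.16 (7.42 to 11.2), and from 200 to under 500 kb members had 6.09 (5.22 to 7.05) and the others 7.25 (6.57 to 7.99). From 500 kb to under 1 Mb members had 7.43 (6.19 to 8.84) and the others 6.24 (5.86 to 6.63), and at 1 Mb or more 2.92 (2.21 to 3.79) and 3.62 (3.51 to 3.73). In all 4 classes the intervals overlapped.

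Of the members, 95 of 250 (38%, 32 to 44.3%) held no protein-coding gene by midpoint, against 93 of 924 other Nanopore LADs (10.1%, 8.2 to 12.2%). Under 200 kb this was 53.4% (44 to 62.6%) of members and 28.9% (19.1 to 40.5%) of other LADs, and from 200 to under 500 kb 26.8% (18.3 to 36.8%) and 17.5% (12.2 to 24.1%). The intervals did not overlap in the narrowest class and overlapped in the next. Members were still the narrower LADs within these classes. Median widths were 110 kb for members and 140 kb for others under 200 kb, and 280 and 340 kb in the next class. A narrower LAD has less room for a gene midpoint, so the classes do not fully match width. When any overlap with a gene counted, 61 members stayed without one, and the same count was not made for other Nanopore LADs. The widest member without a protein-coding gene was a stretch of 2.08 Mb on chromosome 5 (45880001 to 47960000), of which 22.1% lay in an Illumina LAD.

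**Figure D4:**
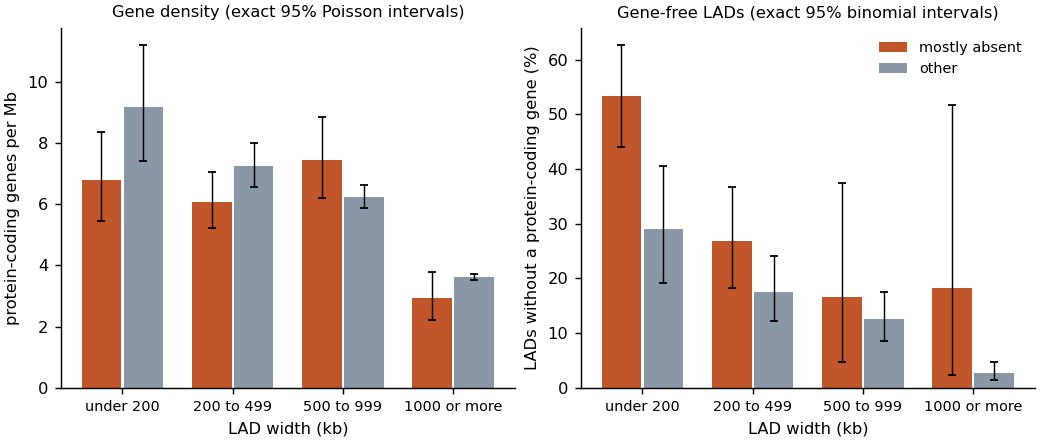
Protein-coding genes per Mb (left, exact 95% Poisson intervals) and percent of LADs without a protein-coding gene (right, exact 95% binomial intervals) by LAD width, for the LADs mostly absent from the Illumina list (orange) and the other Nanopore LADs (grey). Density intervals overlap in each width class, and under 200 kb the share without a gene is 53.4% in orange and 28.9% in grey. Median widths in that class are 110 kb in orange and 140 kb in grey.

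Other classes of genes were spread in their own ways. Long noncoding RNA genes had 4.82 per Mb (4.34 to 5.33) in these LADs, 3.03 (2.94 to 3.12) in other Nanopore LADs and 7.33 (7.17 to 7.49) outside. Pseudogenes had 3.73 per Mb (3.31 to 4.18), 4.09 (3.98 to 4.2) and 3.85 (3.74 to 3.97) in the same 3 places. MicroRNA genes had 0.218 per Mb (0.127 to 0.349), 0.213 (0.189 to 0.238) and 0.837 (0.784 to 0.893). None of 374 V segment genes of antigen receptors lay in these LADs, and 356 lay in other Nanopore LADs. Over all protein-coding genes the shares were 2.07% and 26.8%. Neighbouring genes are not independent, so the count of V segment genes is a description. Median length was 21.0 kb (16.8 to 22.9 kb) for protein-coding genes in these LADs, 12.1 kb (11.1 to 13.2 kb) in other Nanopore LADs and 18.7 kb (18.2 to 19.1 kb) outside. Genes of 100 kb or more made up 21.5% (17.8 to 25.6%) of those in these LADs, 15.7% (14.7 to 16.6%) in other Nanopore LADs and 9.31% (8.85 to 9.78%) outside. Long genes in members include overlapping ones of the chromosome 18 protocadherin locus, such as Pcdha1 (257 kb), Pcdhga1 (180 kb) and Gm37013 (889 kb). Other Nanopore LADs held 1031 olfactory receptor genes, against 3 in members, which were each about 1 kb long. Lengths were not compared without these groups. Genes named only as predicted or by clone made up 108 of the 446 (24.2%, 20.3 to 28.5%), against 11.7% (10.9 to 12.6%) in other Nanopore LADs and 5.54% (5.19 to 5.92%) outside. The run of 8 members at the start of chromosome 14 held 43 of the 446 genes, and all but Lamtor3-ps had such names. That region thus weighs heavily in the share.

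Genes of the extracellular matrix lay in the widest of these LADs. It ran over 2.46 Mb of chromosome 10 (96060001 to 98520000, mm10) and held Dcn, Lum, Kera and Epyc, which encode the proteoglycans decorin, lumican, keratocan and epiphycan, together with the growth inhibitor gene Btg1. Illumina LADs covered 27.6% of it as 3 separate islands, and 1 of its 7 protein-coding genes, the predicted gene Gm46240, had its midpoint in one. Dcn lay from 97479500 to 97518163, Lum from 97565501 to 97572703 and Epyc from 97644068 to 97681908.

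Hormone, receptor and lineage factor genes lay in several wide members. On chromosome X, 2.36 Mb (96240001 to 98600000) held the ferroxidase gene Heph, Hsf3, the macrophage complement receptor gene Vsig4 and the ectodysplasin receptor gene Eda2r. Illumina LADs covered 38.1% of it, in 2 pieces, and Eda2r had its midpoint in one of them. On chromosome 19, 2.26 Mb (50700001 to 52960000) had Ins1 as its only protein-coding gene by midpoint, with 43.4% in Illumina LADs and Ins1 among that part. On chromosome 13, 1.68 Mb (115240001 to 116920000) held Isl1, a LIM homeodomain factor of motor and sympathetic neurons, also in the covered 26.2%. A second wide LAD of chromosome 13 (113000001 to 114300000, 1.3 Mb, 15.4% covered) held Arl15, Cspg4b, Cdc20b and the granzyme genes Gzma and Gzmk, of which Cdc20b, Gzma and Gzmk had their midpoints in the Illumina LAD. A further LAD of the same chromosome (92760001 to 93740000, 980 kb, 30.6% covered) held the synaptic scaffold gene Homer1, the muscle gene Cmya5 and the methyl group genes Bhmt, Bhmt2 and Dmgdh, with the midpoints of Cmya5 and Bhmt2 in Illumina LADs.

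Th, which encodes tyrosine hydroxylase of catecholamine synthesis, shared a LAD of 400 kb on chromosome 7 (142580001 to 142980000) with Igf2, Ins2 and Ascl2. No base of it lay in an Illumina LAD. Igf2 encodes a growth factor and is imprinted, Ins2 encodes insulin and Ascl2 a placental and gut stem cell factor. Of 24 genes of the neuroblast lineage, Isl1 and Th (8.33%) were thus in these LADs, 2 (8.33%) were in other Nanopore LADs and 20 in neither. Over all protein-coding genes the shares were 2.07% in members and 26.8% in other Nanopore LADs. As Isl1 and Th were already known from earlier results when the list was written, the count is a description.

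**Figure D5:**
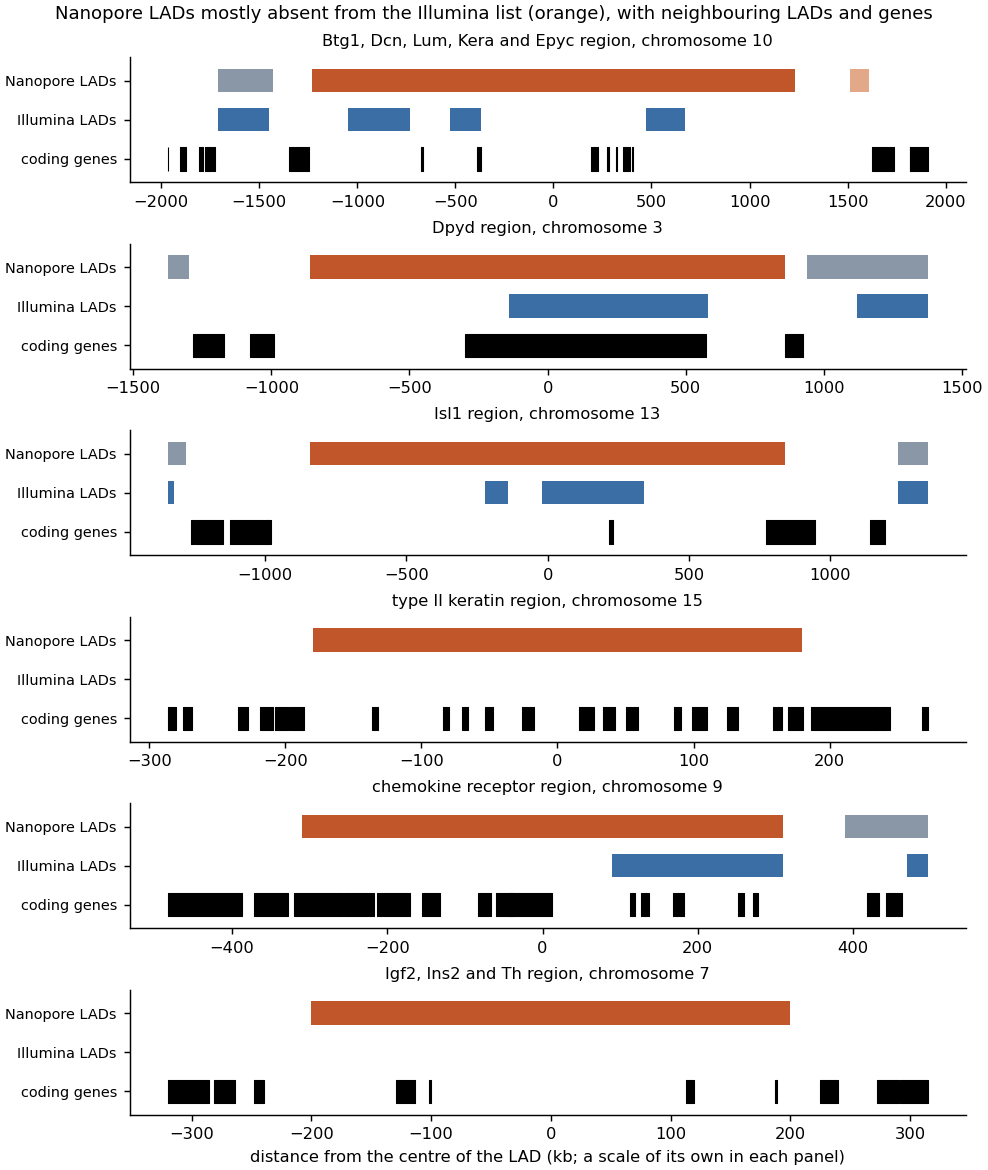
Maps of 6 of these LADs (dark orange) with other members (light orange), other Nanopore LADs (grey), Illumina LADs (blue) and protein-coding genes (black), drawn to scale by distance in kb from the centre of each LAD. The chromosome 10 LAD holds 3 Illumina islands, and the keratin and Igf2 to Th LADs have no Illumina LAD in view.

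Stretches of neighbouring genes with known epithelial roles lay in several members, which were picked after their genes were seen. On chromosome 15, a LAD of 360 kb (101580001 to 101940000) without an Illumina base, 1.48 Mb from the nearest, held 12 type II keratin genes, among them Krt1, Krt2, Krt4 and Krt5, which encode filament proteins of skin and mucosa. Of 53 keratin genes these 12 (22.6%) were in members, all in this LAD, 23 in other Nanopore LADs and 18 in neither, against 2.07% in members and 26.8% in other Nanopore LADs over all protein-coding genes. Other keratin genes lay on both sides of the LAD. On chromosome 2, a LAD of 460 kb (153840001 to 154300000) held 12 genes of the Bpif family, secreted proteins of mouth and airway linings such as Bpifa1 and Bpifb1, with Sun5 and Cdk5rap1. It stood close to the threshold at 47.8% covered, and 5 of its 14 genes were in the Illumina LAD inside it. On chromosome 10, 6 genes of short-chain dehydrogenases, including the retinol dehydrogenase genes Rdh7, Rdh9, Rdh16 and Rdh19, filled a LAD of 140 kb (127780001 to 127920000) without an Illumina base. On chromosome 6, a LAD of 120 kb (85720001 to 85840000) held Nat8 and 3 related acetyltransferase genes, 3.14 Mb from an Illumina LAD.

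Some members held genes known from leukocytes, picked after they were seen, although 0 of 15 blood and immune markers, 0 of 56 C-type lectins and killer receptors and 2 of 82 interleukins and their receptors (2.44%) were in members. On chromosome 9, 620 kb (123540001 to 124160000) held the chemokine receptor genes Ccr1, Ccr2, Ccr3, Ccr9, Cxcr6 and Xcr1, which guide leukocyte traffic, with Lztfl1, Fyco1 and Sacm1l. Illumina LADs covered 35.5% of it, at one end, with 5 of its 13 genes, among them Ccr1, Ccr2 and Ccr3. Ccl8 and Ccl12, chemokine genes, lay in a LAD of 80 kb on chromosome 11 (82080001 to 82160000) without an Illumina base. Of 47 genes matched as chemokines and their receptors, 8 (17%) were in members, 8 (17%) in other Nanopore LADs and 31 in neither, against 2.07% and 26.8% over all protein-coding genes, and the 8 lay in 2 LADs; the pattern does not take in Xcr1. Il1a and Il1b, the interleukin 1 genes, lay in 940 kb of chromosome 2 (129300001 to 130240000, 17% covered) with the opioid peptide gene Pdyn, Sirpa and the transglutaminase genes Tgm3 and Tgm6. Fcrl1, Fcrls and Cd5l lay in a LAD of 220 kb on chromosome 3 (87240001 to 87460000) without an Illumina base.

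Homeobox and other patterning genes were present in small numbers. Hoxc12 and Hoxc13 lay in a LAD of 160 kb on chromosome 15 (102780001 to 102940000) with no Illumina base, and Hoxb1 and Hoxb2 in 400 kb of chromosome 11 (96340001 to 96740000), where both had their midpoints in the Illumina LAD that covered 20% of it. Of 39 Hox genes these 4 (10.3%), in 2 LADs, were in members, 4 in other Nanopore LADs and 31 in neither, against 2.07% in members over all protein-coding genes. The ParaHox genes Gsx1, Pdx1 and Cdx2, for brain, pancreas and gut, lay with Urad and the cytokine receptor gene Flt3 in 260 kb of chromosome 5 (147140001 to 147400000), 180 kb from an Illumina LAD. Twist1 and Ferd3l on chromosome 12 (33500001 to 34320000) and Otx1, Ehbp1 and Tmem17 on chromosome 11 (21760001 to 22580000) each shared a LAD of 820 kb with no Illumina base. Tbx5, a heart and forelimb factor gene, was the only protein-coding gene by midpoint in a LAD of 280 kb on chromosome 5 (119780001 to 120060000, 42.9% covered), within the covered part.

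Cell surface proteins of neurons were represented by the clustered protocadherins of chromosome 18. A LAD of 540 kb (37220001 to 37760000, 18.5% covered) was the richest member, with 30 protein-coding genes, none of them with its midpoint in the Illumina LAD inside. A neighbour of 280 kb (36800001 to 37080000, 28.6% covered) held the midpoints of 6 Pcdha genes. Together they held 31 of 57 clustered protocadherins (54.4%, against 2.07% over all protein-coding genes), and the other 26 were in neither. Midpoints of Pcdha and Pcdhg genes depend on exons they share. Scn1a and Scn7a, sodium channel genes, had their midpoints in separate LADs of chromosome 2. For Scn1a this was a LAD of 80 kb (66300001 to 66380000) without an Illumina base. That LAD lay inside Scn1a and covered 47% of the gene. Scn7a lay in a LAD of 800 kb (66660001 to 67460000, 27.5% covered). Scn1a and Scn7a were 2 of 20 genes for voltage-gated sodium and calcium channels (10%), with 4 in other Nanopore LADs.

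Some members on chromosomes X and 14 held neighbouring genes of multicopy families, many with only predicted names. A LAD of 1.6 Mb on chromosome X (25260001 to 26860000) held Slx, a gene of a family expressed in spermatids, and 8 predicted genes, with 1.25% of its bases in an Illumina LAD. Another, of 280 kb (8360001 to 8640000), held Ssxb1, Ssxb2, Ssxb3, Ssxb6 and Ssxb9 with no Illumina base. On chromosome 14, LADs of 560 kb (4020001 to 4580000), 240 kb (4660001 to 4900000) and 1260 kb (5820001 to 7080000) held 10, 6 and 20 protein-coding genes, of which 10, 6 and 19 had only predicted or clone names. Near-identical copies can draw reads from each other when reads are aligned, and the treatment of such reads by the authors was not stated in the labels.

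Some of these LADs lay wholly within a single gene. This held for 28 of 250 members (11.2%, 7.57 to 15.8%), against 13 of 924 other Nanopore LADs (1.41%, 0.751 to 2.39%). Under 200 kb the shares were 16.1% (9.98 to 24%) and 11.8% (5.56 to 21.3%), and from 200 to under 500 kb 7.22% (2.95 to 14.3%) and 1.75% (0.363 to 5.04%), with overlapping intervals in both classes. Among the 28 was the protocadherin LAD of 540 kb on chromosome 18, counted within Gm37013, a predicted gene of 889 kb. That LAD held 30 protein-coding genes by midpoint, so it was not the territory of a single gene. The heparan sulfate enzyme gene Hs6st3 on chromosome 14 had 90.1% of its 732 kb in such a LAD (119140001 to 119800000). The chromatin factor gene Mbd5 on chromosome 2 had 75.6% of its length in one (49020001 to 49300000), the ectodysplasin gene Eda on chromosome X 70.6% (100000001 to 100300000), the coagulation factor gene F8 65.9% (75240001 to 75380000) and the thyrotropin receptor gene Tshr 57.3% (91460001 to 91540000, chromosome 12). Zbtb20, a transcription factor gene on chromosome 16, held a LAD of 360 kb (42940001 to 43300000) of which 33.3% was in an Illumina LAD. Vps13b on chromosome 15 held one of 220 kb (35620001 to 35840000) and Nav3, a neuron navigator gene on chromosome 10, one of 120 kb (109940001 to 110060000), both without an Illumina base. Dpyd, on the other hand, lay wholly inside its LAD of 1.72 Mb on chromosome 3 (118000001 to 119720000, 41.9% covered), with its midpoint in the Illumina LAD.

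Large receptor families had few genes in these LADs, read against 2.07% in members and 26.8% in other Nanopore LADs over all protein-coding genes. Of 1105 olfactory receptor genes 3 (0.271%) were in members, namely Olfr1402, Olfr370 and Olfr371, and 1031 (93.3%) in other Nanopore LADs. Of 350 vomeronasal receptor genes 2 were in members, Vmn1r137 and Vmn1r138, and 300 in other Nanopore LADs. Smaller lists cannot be read in the same way, since a share of 2.07% gives few genes in them. Bitter taste receptors (35 genes), keratin-associated proteins (56), serpins A and B (52), defensins (70), C-type lectins and killer receptors (56), glutamate receptors (26), GABA-A receptors (19), cadherins (23) and 30 long genes for neural adhesion had 0 genes in members, while 33, 47, 44, 54, 46, 15, 11, 13 and 26 of them were in other Nanopore LADs. UDP-glucuronosyltransferases had 0 of 21 in members and 12 in other Nanopore LADs, and Cyp2, Cyp3 and Cyp4 genes had 1 of 76, Cyp3a13, and 54.

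Lists of general cell functions were too small for a count of 0 to be read against the share of 2.07% over all protein-coding genes. No gene for the proteasome (48), housekeeping (18), the cell cycle (18), ribosomal proteins (81), mitochondrial complex I (46), the lamina (15) or DNA methylation (14) lay in a member, and 0, 0, 0, 4, 2, 0 and 2 of them lay in other Nanopore LADs. Zfp zinc finger genes had 6 of 394 (1.52%) in members and 126 in other Nanopore LADs, and solute carriers 10 of 369 (2.71%) and 65, against a share of 2.07% in members over all protein-coding genes. Potassium channels had 3 of 92 in members, Kcnh1, Kcnj15 and Kcnk1, and 34 in other Nanopore LADs. Interleukins and their receptors had 2 of 82 and 31, Fox factors 1 of 44 (Foxr2) and 12, collagens 1 of 44 (Col6a6) and 13, Rab GTPases 1 of 59 (Rab6b) and 4, imprinted genes 1 of 23 (Igf2) and 6, and gasdermins 1 of 9 (Gsdmc) and 0. Sox factors (19), Wnt and frizzled genes (29) and markers of blood (15), liver (15) and muscle (17) had 0 in members and 5, 4, 4, 6 and 5 in other Nanopore LADs.

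The 250 members made up 21.3% of Nanopore LADs. With the lists exchanged, 32 of 1149 Illumina LADs (2.79%) had less than 50% of their bases in Nanopore LADs.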

How the data were processed

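The authors deposited 1 consensus LAD list for Nanopore-DamID and 1 for Illumina-DamID of N2A cells, as intervals in mm10 with no count, signal or score per interval, so depth is unknown. Per the submitters' processing notes, minimap2, SAMtools, bedtools and deepTools were used and the builds were mm10 and hg38; the caller was not stated. Both lists lie on a 20 kb grid with no gap under 60 kb. Only chromosomes 1 to 19 and X were used, and the 3 HEK293T samples and the wild-type N2A sample were not analysed here.

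Coverage, widths and distances were computed with Python 3.11.15, numpy 2.4.6 and pandas 2.3.3, and exact binomial and Poisson 95% intervals with scipy 1.17.1; the code was tested on simulated data. Genes of GRCm38.p6, the assembly behind mm10, were placed by midpoint, leaving out 340 genes that start below 3 Mb, the start of placed sequence taken here. Coding genes means protein-coding genes. Medians have order-statistic intervals.

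The members and the 40 gene lists were chosen with earlier results of these data known. By rule, up to 3 of the longest approved-style genes were named in the 15 widest and in the 5 gene-richest members, and up to 4 per list in alphabetical order; every other gene and microRNA named was chosen after its values were seen.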

Additional observations from a re-analysis of the deposited data

How the results depend on the processing

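Of 67 values under 11 alternatives, 54 stayed within the interval of the value reported (for the number of members, within 1.5 times) and 13 moved; the number of members, 250 as reported, lay between 195 and 333. With a threshold of 25%, 75% or no covered base, the share of members without an Illumina base was 92.9%, 58.6% or 100%, and the median distance to the nearest Illumina LAD, 280 kb over all 250 members, was 360, 140 or 420 kb, which follows from the thresholds themselves. The share of members without a protein-coding gene was 31.2% at a threshold of 75%, 31.9% without LADs under 100 kb, 55.6% when genes had to lie wholly inside and 24.4% when any overlap counted. Gene density was 4.36 per Mb with genes wholly inside and 6.93 per Mb with any overlap, both set by the way genes are placed. Merging Nanopore LADs or Illumina LADs across gaps up to 40 kb could change nothing, since no gap was under 60 kb. The 7 values of each of these alternatives are nevertheless counted among the 54 that stayed. Merging Nanopore LADs across gaps up to 100 kb, an alternative chosen after seeing the data, moved the median distance to the nearest Nanopore LAD to 340 kb, against 230 kb as reported, as it removes the shortest distances. No paired analysis was possible because each method has a single consensus list with no values per sample. For the same reason leaving out a replicate was not possible, no spread between replicates could be set beside the differences, and absence from a list cannot be told apart from a signal below the caller's limit. The 20 kb grid limits how finely borders and the narrowest LADs are known.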
